A study of Mus musculus with 2 samples.

Results

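The miR-29 family was followed in Müller glia (MG), the radial glia that span the retina, through its 3 mouse probes mmu-miR-29a, mmu-miR-29b and mmu-miR-29c (miR-29a, miR-29b and miR-29c in the following). They were picked by name, with their values in these libraries already known, from the 566 mouse miRNA probes of a NanoString nCounter panel. The 2 samples are MG sorted as tdTomato+ cells from adult mouse retinas, 1 pooled library per group. Wild-type MG came from Rlbp1-CreER:tdTomato mice, and Dicer-CKO MG from mice that also carried floxed Dicer1 alleles (Dicerf/f). Both groups had the Rlbp1-driven CreER and the reporter, and the labels give tamoxifen at 75 mg/kg from postnatal day 11 to 14 for both. The wild-type pool held 40 retinas by its description (a protocol label of the same sample says 26) and the Dicer-CKO pool 26. Rlbp1 drives the recombinase in MG, and only the brightest tdTomato+ cells were collected. Dicer1 mRNA is not on the panel, so the deletion itself was not measured here. With 1 library per group there is no replicate, no p-value is given, and every interval covers counting error only.

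Most miRNAs are cut from a hairpin precursor by Dicer, after which the mature strand is loaded into an Argonaute protein and pairs with target mRNAs through its seed, bases 2 to 8. The miR-29 family is known for repressing collagens and other extracellular matrix genes and DNA methyltransferases, and in the nervous system its level rises as cells mature. None of these targets was measured in these files.

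The mature sequences show why the members are a family and where they part. They are credited to RefSeq (GRCm38.p6), which held all 3, and are written 5′ to 3′ with the seed in capitals.
miR-29a: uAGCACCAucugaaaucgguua
miR-29b: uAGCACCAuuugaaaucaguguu
miR-29c: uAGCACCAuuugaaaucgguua
The seed AGCACCA was shared by 3 of 1679 mouse mature miRNAs in that table (0.179%), and these were the 3 members. Counted from the 5′ end, miR-29a and miR-29c differed by a single substitution, C10U. miR-29c and miR-29b had their first 17 bases in common and differed by G18A, U21G and A22U, and miR-29b ran 1 base longer. The last 6 bases of miR-29b, AGUGUU, were first described in human cells as an element that directs miR-29b to the nucleus. Among the 1679 mouse mature miRNAs, 2 (0.119%) end in these letters, and miR-29a and miR-29c do not.

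The family is encoded in pairs of hairpin genes. On chromosome 6 (minus strand), Mir29a (chr6:31062660-31062747) and Mir29b-1 (chr6:31063023-31063093) are separated by 275 bp, and no other annotated gene overlaps them. On chromosome 1 (plus strand), Mir29b-2 (chr1:195037040-195037120) and Mir29c (chr1:195037547-195037634) are separated by 426 bp and lie within the lncRNA gene A330023F24Rik (195017399 to 195037908). Mir29b-1 and Mir29b-2 have different hairpins but the same mature strand, given here in capitals, so that the miR-29b probe reads the product of both loci together.
Mir29b-1: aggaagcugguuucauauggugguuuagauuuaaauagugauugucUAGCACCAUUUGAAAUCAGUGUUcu
Mir29b-2: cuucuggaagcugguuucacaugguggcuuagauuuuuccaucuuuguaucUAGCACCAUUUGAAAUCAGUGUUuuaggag
miR-29a and miR-29c have 1 locus each in this annotation. No probe for the other strand of any of these hairpins was on the panel.

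Over all probes, 769736 barcodes were counted in the wild-type library and 139812 in the Dicer-CKO library. Counts were normalized by subtracting the mean of the 8 negative controls, then scaling by the 6 positive controls and by the 4 housekeeping mRNAs Actb, B2m, Gapdh and Rpl19. Detection required more raw counts than the negative controls' mean plus 2 SD, which came to 71.7 for the wild-type library and 53.2 for the Dicer-CKO library. On the normalized scale these limits were 23.6 and 90.0, so the Dicer-CKO library was the less sensitive one. Of the 566 mouse miRNAs, 74 were detected in both libraries, among them all 3 members. miR-204, miR-9 and miR-125b-5p, taken as MG markers, summed to 60.3% of the background-subtracted count of the detected mouse miRNAs in wild-type and to 34.9% in Dicer-CKO.

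miR-29a was the abundant member. Its probe counted 7585 barcodes in wild-type MG (95% Poisson interval 7415 to 7758) and 937 in Dicer-CKO MG (878 to 999). After normalization these were 5402 and 2511. In Dicer-CKO MG miR-29a therefore kept 46.5% of the wild-type value (95% counting interval 43.3 to 49.9%), a log2 ratio of -1.11 with a counting SE of 0.05. It was the miRNA with rank 13 of the 566 in wild-type and rank 10 in Dicer-CKO.

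miR-29b, the partner of miR-29a on chromosome 6 and of miR-29c on chromosome 1, was scarcer. For wild-type 1552 raw counts were read (1476 to 1631) and for Dicer-CKO 474 (432 to 519), which gave normalized counts of 1083 and 1243. The Dicer-CKO level was 115% of wild-type (103 to 128%), and the log2 ratio was 0.20 with a SE of 0.08. miR-29b moved from rank 32 to rank 20.

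miR-29c gave almost the same picture as miR-29b. For wild-type 1893 raw counts were read (1809 to 1980) and for Dicer-CKO 592 (545 to 642), and its normalized counts were 1327 and 1566. This was 118% of wild-type (107 to 130%), a log2 ratio of 0.24 with a SE of 0.07, with ranks 29 and 18. So the raw count of every member was lower in Dicer-CKO MG, while on the housekeeping scale only miR-29a was lower and miR-29b and miR-29c lay slightly above wild-type. The smallest normalized count of a member, that of miR-29b in wild-type, was 45.8 times the wild-type detection limit, and its Dicer-CKO count was 13.8 times the limit of that library.

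**Figure D1:**
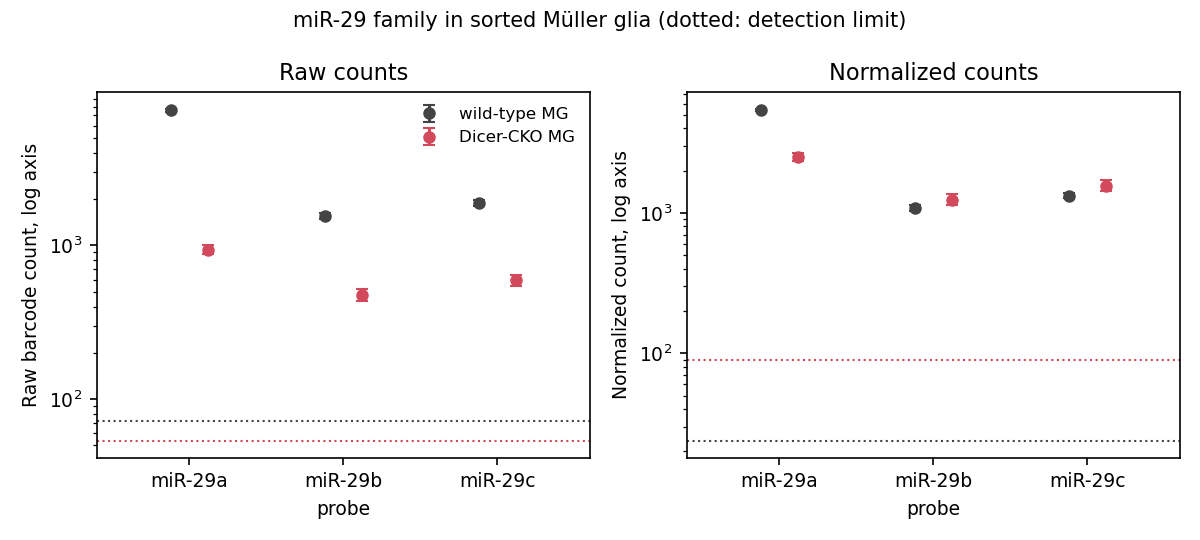
Raw barcode counts (left) and normalized counts (right) of the 3 probes in the wild-type and the Dicer-CKO library, on log axes. Points are the single pooled libraries, bars are 95% Poisson intervals of the counts, and dotted lines are the detection limits of 71.7 and 53.2 raw or 23.6 and 90.0 normalized counts. All 3 raw counts were lower in Dicer-CKO, and after normalization only miR-29a was.

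The members were then set beside the rest of the panel. Of the 74 miRNAs detected in both libraries, 41 (55.4%) were at least 2-fold lower in Dicer-CKO MG and 18 (24.3%) at least 2-fold higher on the housekeeping scale, and 23 (31.1%) had a higher value of any size. Of the members, 1 of 3, miR-29a, was at least 2-fold lower, 0 of 3 were at least 2-fold higher, and 2 of 3, miR-29b and miR-29c, had a higher value. The 2-fold call of miR-29a was narrow and was lost without B2m among the scaling genes, at 50.6% of wild-type. Since the members were chosen with this contrast known, these counts are a description. With the sum of the detected miRNAs as the scale, the same calls were 4 lower and 34 higher, and with positive controls only 58 lower and 1 higher.

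The ratio of miR-29a lay at the middle of the 74 miRNAs detected in both libraries, a part of the 171 detected in wild-type. The median over the 74 miRNAs was 46.1% of wild-type (quartiles 26.8 and 173%), against 46.5% for miR-29a, which had rank 36 when ratios were ordered from the highest. miR-29c and miR-29b had ranks 22 and 23. The ratio of miR-29a was 1.01 times the median ratio, that of miR-29b 2.49 times and that of miR-29c 2.56 times, and these 3 folds do not depend on which scaling genes are used. The median log2 ratio was 0.20 over the 3 members and -1.12 over the 74 miRNAs. A miRNA of low wild-type level could enter the 74 only where its Dicer-CKO count passed 90.0, so abundant miRNAs were also taken alone. Among the 32 miRNAs with a wild-type normalized count of at least 1000 that were detected in both libraries, the median was 30.0% of wild-type, 28 were at least 2-fold lower, and 2 were above wild-type. These 2 were miR-29c and miR-29b, followed by miR-1944 at 70.4% and let-7f at 68.5%. Next came miR-29a at 46.5%, above the median of the 32. The minimum was set with the values known and lies just below miR-29b, at 1083 the lowest of the 32. Most of the 23 miRNAs above wild-type (31.1% of the 74) lay below this minimum. Among them, miR-124 went from 839 to 7503 and miR-1937a+miR-1937b, read by a shared probe, from 678 to 804.

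**Figure D2:**
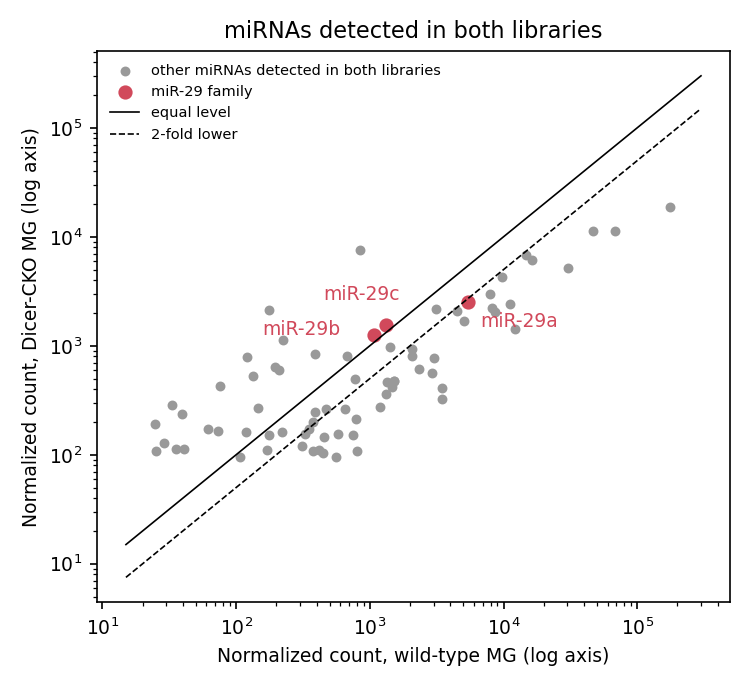
Normalized counts of the 74 miRNAs detected in both libraries, wild-type MG on the horizontal and Dicer-CKO MG on the vertical axis, both log axes. Each point is 1 miRNA, the solid line marks equal levels and the dashed line a 2-fold lower level. miR-29b and miR-29c lie just above the solid line and miR-29a just below the dashed one, and the lower edge of the cloud is set by the Dicer-CKO detection limit of 90.0.

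The 3 miRNAs nearest to each member in level were sought by the distance between log2 normalized counts over the 2 libraries. For miR-29a these were miR-16 (distance 0.38), let-7a (0.59) and miR-135a (0.62). miR-16, which restrains cell cycle genes, had 6325 raw counts in wild-type and 780 in Dicer-CKO, 46.2% of wild-type after normalization. let-7a, of the family that keeps cells differentiated, stood at 33.3% and miR-135a at 37.9%. The nearest miRNA to miR-29b was miR-29c and the nearest to miR-29c was miR-29b, at a distance of 0.44. Next came let-7f for both (0.53 from miR-29b, 0.69 from miR-29c), and then the joint probe for miR-1937a and miR-1937b for miR-29b (0.92) and miR-23a for miR-29c (0.97). A likeness over 2 libraries is a description of their levels only.

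The direction for each member depended on the scale. The order of the members could not, since a scale multiplies the ratios of all 3 by the same factor. miR-29a was below wild-type with any of the housekeeping genes and above it on scales set by the miRNAs themselves. All 4 housekeeping mRNAs had lower counts in Dicer-CKO MG, and after background subtraction Gapdh, a glycolytic enzyme, was at 0.203 of its wild-type count, the ribosomal protein gene Rpl19 at 0.247, beta-actin (Actb) at 0.275 and B2m, which encodes beta-2-microglobulin, at 0.338. Scaled to Gapdh alone, miR-29a, miR-29b and miR-29c stood at 59.7%, 147% and 152% of wild-type. Scaled to B2m alone, they stood at 36.0%, 88.7% and 91.3%, so that all 3 were below wild-type. With positive controls only, which correct for the assay and not for the amount of RNA, the values were 8.57%, 21.1% and 21.7%. On a scale that sets the summed detected miRNAs equal in both libraries, they were 190%, 469% and 482%, so that all 3 were above wild-type. The median of the 74 miRNAs moved with them, from 8.49% of wild-type with positive controls to 188% with the sum of detected miRNAs. In these bulk pools, fewer cells of a type and less miRNA per cell cannot be told apart.

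**Figure D3:**
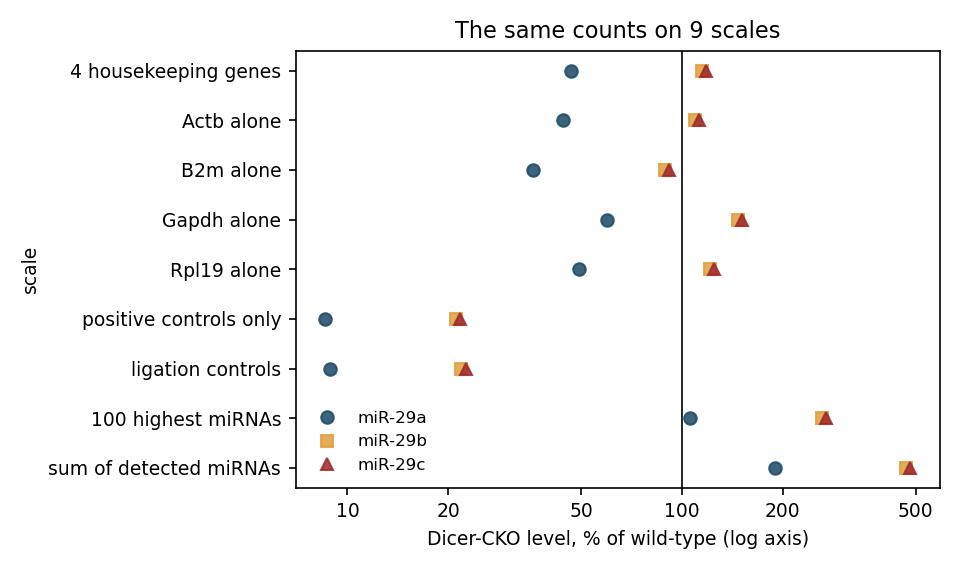
Dicer-CKO level as a percent of wild-type (log axis) for miR-29a, miR-29b and miR-29c on 9 scales, 1 scale per line. The vertical line marks equality with wild-type. The 3 points range from 8.57, 21.1 and 21.7% with positive controls to 190, 469 and 482% with the sum of detected miRNAs. They shift together by construction, since a scale multiplies all 3 by the same factor. Their order, with miR-29a the lowest, is therefore the same on every line.

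The make-up of the family can be read without any scale, from the counts within a library. Of 11030 raw counts over the 3 probes in wild-type MG, miR-29a held 68.8% (exact 95% binomial interval 67.9 to 69.6%), miR-29c 17.2% (16.5 to 17.9%) and miR-29b 14.1% (13.4 to 14.7%). Of 2003 raw counts in Dicer-CKO MG, miR-29a held 46.8% (44.6 to 49.0%), miR-29c 29.6% (27.6 to 31.6%) and miR-29b 23.7% (21.8 to 25.6%). In raw counts, miR-29a thus held more than the other members together in wild-type and less in Dicer-CKO, and the order of the 3 members was the same in both libraries. How well each probe captures its miRNA can differ, so that the shares are approximate in both libraries. This difference stays in a share and cancels only in the ratio of a pair of members compared between libraries.

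**Figure D4:**
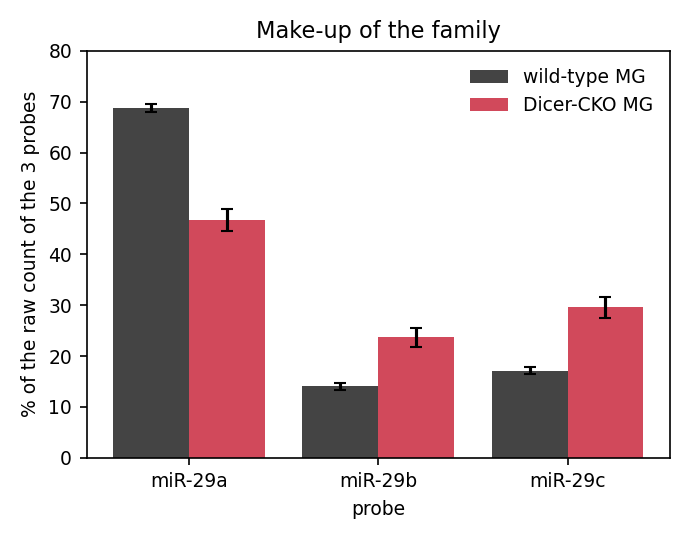
Share of the raw count of the 3 miR-29 probes taken by each of them, in percent, in wild-type MG (11030 counts) and Dicer-CKO MG (2003 counts). Bars start at 0 and error bars are exact 95% binomial intervals. The miR-29a share was 68.8% in wild-type and 46.8% in Dicer-CKO, and both other shares were larger in Dicer-CKO.

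Like most miRNAs detected in both libraries, the family was a larger part of the miRNA signal in Dicer-CKO MG. It made up 1.62% of the background-subtracted count of the detected mouse miRNAs in wild-type and 4.49% in Dicer-CKO, a 2.78-fold higher share. Measured in the same way, as a part of the summed miRNA signal, the median of the 74 miRNAs was at 188% of wild-type, and 59 of them were above it. Its summed normalized count on the housekeeping scale went from 7813 to 5320, which is 68.1% of wild-type (64.6 to 71.7%).

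The abundant member of each locus was next compared with its partner. For the chromosome 6 pair, the background-subtracted count of miR-29a was 4.99 times that of miR-29b in wild-type MG (4.71 to 5.27) and 2.02 times in Dicer-CKO MG (1.80 to 2.27). The ratio in Dicer-CKO was 0.405 of that in wild-type (0.356 to 0.461), a log2 difference of -1.30 with a counting SE of 0.09. For the chromosome 1 pair, miR-29c over miR-29b was 1.23 in wild-type (1.14 to 1.31) and 1.26 in Dicer-CKO (1.11 to 1.43). This ratio in Dicer-CKO was 1.03 times that in wild-type. By counting error alone, its interval of 0.891 to 1.19 holds equality and leaves out a change of 1.5-fold or more. The spread between pools was not measured, so such a change between the genotypes is not excluded. Across the loci, miR-29a over miR-29c was 4.07 in wild-type and 1.60 in Dicer-CKO, 0.394 of the wild-type ratio (0.350 to 0.443). The pair of members that kept its ratio was therefore miR-29b with miR-29c, and miR-29a parted from both to nearly the same degree. Because the miR-29b count pools both loci, the ratio at each locus itself was not measured.

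miR-29a and miR-29c differ by 1 base, and a probe that reads some miR-29a would carry part of its count. If the whole wild-type signal of the miR-29c probe were miR-29a read at a fixed share, that share would be 24.6%, and it would give 225 of the 572 background-subtracted counts of miR-29c in Dicer-CKO MG. For miR-29b the same sum is 20.1%, or 184 of 454 counts. Cross-reading between the probes was not tested.

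To see how often partners of a cluster part in these libraries, the comparison was run on all pairs of panel miRNAs whose RefSeq genes lie on 1 strand within 10 kb. Of the 557 probes that read 1 miRNA, 437 could be matched to a RefSeq gene, and 15 pairs were detected in both libraries. In 7 of the 15 (46.7%) the ratio of the partner that was more abundant in wild-type to the other was at least 2-fold lower in Dicer-CKO MG, and in 8 (53.3%) it differed at least 2-fold in either direction. miR-29a with miR-29b was among the 7, and miR-29c with miR-29b was among the 7 pairs that differed by less than 2-fold. The pairs are not independent, since several share a miRNA, and the more abundant partner was taken from the same wild-type counts. The 3 pairs that fell the most were miR-30c over miR-30e (to 0.364 of the wild-type ratio, 0.223 to 0.593), let-7d over let-7f (0.390, 0.340 to 0.448) and miR-29a over miR-29b (0.405). The intervals of these 3 pairs overlapped. On the other side, let-7c over miR-99a rose to 3.31 times its wild-type ratio (2.99 to 3.66), let-7c over let-7b to 1.78 times and miR-16 over miR-15b to 1.73 times. A changed ratio between the probes of cluster partners was therefore common among these pairs and not particular to miR-29. Like that of miR-29b, some of these probes pool loci, among them miR-16 and let-7c, which have genes on different chromosomes. For such pairs the ratio at the locus was not measured.

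**Figure D5:**
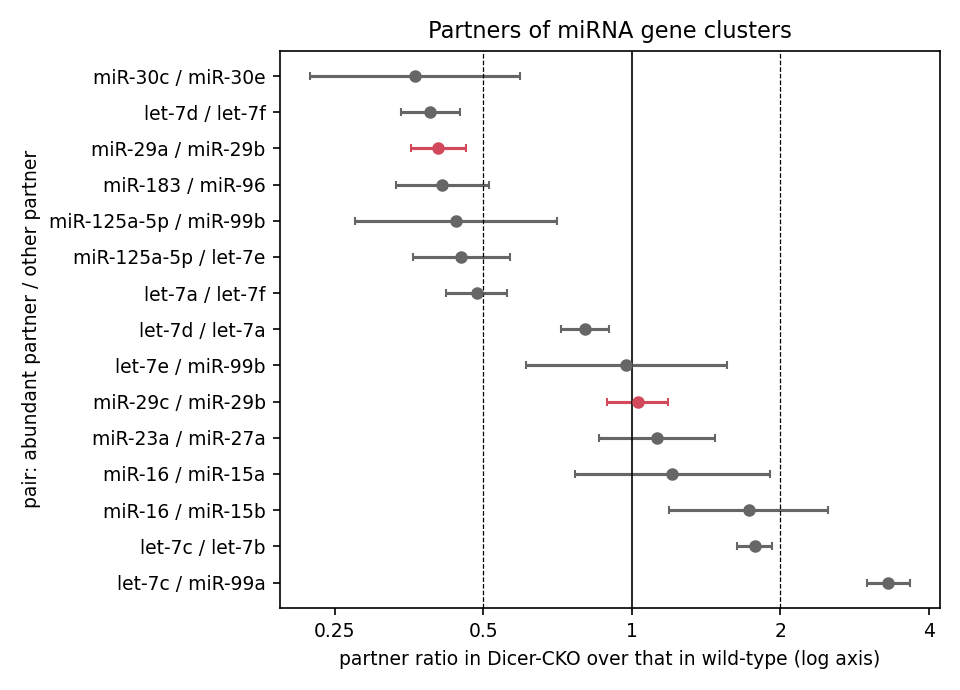
Ratio of cluster partners in Dicer-CKO MG relative to the same ratio in wild-type MG (log axis) for the 15 pairs detected in both libraries, with the partner that was more abundant in wild-type on top of the ratio. Bars are 95% counting intervals, the solid line marks no difference and the dashed lines 2-fold. The miR-29 pairs are in red, miR-29a over miR-29b at 0.405 and miR-29c over miR-29b at 1.03.

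Summed over the list, miRNAs of other cell types were higher in the Dicer-CKO library on the housekeeping scale, and these values stand beside the results on miR-29b and miR-29c because the libraries differ in them. Of 19 miRNAs listed for neurons, photoreceptors, immune cells, blood vessels and erythroid cells, 11 were detected in wild-type and 10 in Dicer-CKO. These 10 had the higher normalized count in Dicer-CKO. They are themselves part of the 23 of the 74 miRNAs detected in both libraries (31.1%) that were higher, so the counts are not independent. A listed miRNA of low wild-type level could be among the 10 only where its Dicer-CKO count passed 90.0. In wild-type, miR-142-3p (24.6), miR-146a (61.8), miR-132 (73.3) and miR-150 (76.1) lay below 90.0. For these, detection in Dicer-CKO already required a higher value. In raw counts, miR-129-3p (313 and 252), miR-132 (141 and 81), miR-142-5p (226 and 214) and miR-146a (125 and 83) were lower in Dicer-CKO, and the others of the 10 were higher. The neuronal miR-137 was detected in wild-type only, with raw counts of 78 and 21. The summed normalized count of all 19, with undetected probes included and negative values left out, was 1977 in wild-type and 13832 in Dicer-CKO. Set against the background-subtracted count of detected mouse miRNAs, these sums were 0.409% and 11.7%. The neuronal miR-124 made up the largest part, with raw counts of 1211 and 2759. The erythroid miR-451, miR-144 and miR-486, the vascular miR-143, miR-145 and miR-126-5p, the myeloid miR-223 and the photoreceptor miR-182 were not detected in either library. The part of other cells in the miR-29 counts was not tested.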

How the data were processed

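miRNA was measured in 2 pooled libraries with the NanoString nCounter assay, in which tagged miRNAs are hybridized to barcoded probes and counted without amplification. The authors deposited raw counts for the 626 probes of each library and normalized counts, a score rounded to whole numbers, made with nSolver from 4 housekeeping genes, 8 negative and 6 positive controls. Raw counts were used here and normalized anew. The result was 1.14 times the deposited score in both libraries. Probes were matched by accession.

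Counting intervals (95%) were computed on the log scale from the Poisson error of the raw counts and the error of the mean of the negative controls. They leave out the error of the scaling genes and any spread between animals. Intervals of single counts are exact Poisson, and those of shares exact binomial. The method was tested on simulated Poisson counts. These held no scaling error and no spread between pools, so that neither was tested.

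The members, the lists and the tests were chosen with earlier results of these data known. Named were the 3 members, the 3 nearest miRNAs to each, the 3 cluster pairs with the largest change on either side, the controls and marker lists. miR-1944, let-7f and the members among the 32 most abundant were named after their values were seen. Alternatives were other backgrounds, scales, detection limits and gene distances. Scaling to each housekeeping gene alone was added after seeing the data. Python 3.11.15, numpy 2.4.6, scipy 1.17.1 and pandas 2.3.3 were used.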

Additional observations from a re-analysis of the deposited data

How the results depend on the processing

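miR-29a over miR-29b, miR-29c over miR-29b and miR-29a over miR-29c stayed within their counting intervals in 12 of 12 combinations of ratio and setting. The settings were no background subtraction, larger subtractions and the deposited normalized counts. These ratios are linked, and the scale of a library cancels in them. The backgrounds were small beside the members' raw counts, so these settings could move the ratios little. Levels relative to wild-type changed with the scale. In percent of wild-type, for miR-29a, miR-29b, miR-29c and the family sum in this order, they were 8.57, 21.1, 21.7 and 12.5 with positive controls only, 8.88, 21.9, 22.5 and 13.0 with ligation controls, 106, 262, 269 and 155 when scaled to the 100 highest miRNAs, and 190, 469, 482 and 278 with the sum of detected miRNAs. Scaled to B2m alone they were 36.0, 88.7, 91.3 and 52.7, and to Gapdh alone 59.7, 147, 152 and 87.5. The family sum was 72.1 with Rpl19 alone. Without Gapdh, miR-29a was at 42.8 and the sum at 62.6, and without B2m at 50.6 and 74.2. A larger subtraction, the negative controls' mean plus 2 SD, gave 52.9 for miR-29a, 133 for miR-29c and 76.7 for the sum, and subtracting the highest negative control gave 55.8, 133, 139 and 80.5 for the 3 members and the sum. The call of miR-29a as at least 2-fold lower was thus lost without B2m, with larger subtractions and with Gapdh alone. On both miRNA scales the direction reversed, and miR-29a and the family sum lay above wild-type.

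Counts of miRNAs at least 2-fold lower were 41, and fell to 4 on the scale of summed miRNAs and to 11 on that of the 100 highest. Those at least 2-fold higher were 18, and 1 with positive controls or ligation controls, 34 with the sum of detected miRNAs, and 9 of 47 with raw counts above 100 in both libraries. The number of cluster pairs that differed at least 2-fold was 8, and 6 to 10 in the alternatives, 6 of 12 with genes within 1 kb. No paired analysis was possible because each group has 1 library. Raw counts of 474 to 7585 kept counting error small for the members. The spread between replicates could not be measured.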
